A study of Mus musculus with 29 samples.

Results

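The comparison described here set the circulating microRNAs (miRNAs) of old mice against those of young adult mice whose muscle wasting had been induced by disuse. It used 9 of the 29 small RNA libraries of the study: 4 libraries of old serum and 5 of disuse serum. All mice were C57BL/6, an inbred laboratory strain. The old mice were 24 months old and labelled as controls, and the disuse mice were 6 months old and labelled as a model of disuse-induced atrophy. A further 5 serum libraries came from 6-month-old control mice, called young below, and the 15 muscle libraries came from the tibialis anterior, a fast muscle of the lower leg, in the same 3 conditions. How disuse was imposed, and for how long, is not given in the sources used here. Age and disuse differ together between old and disuse serum, and in that contrast alone they cannot be told apart; the levels of young serum are set beside it below. The labels number the samples but name no animals. The p-values below therefore reflect how far the numbered samples vary, and some of that variation may be technical.

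The libraries were chosen by their labels, and the miRNAs by having a value in every library. Of 1183 miRNAs in the table, 695 had a value in each of the 29 libraries, and 616 of those had at least 1 count in old or disuse serum. Both groups detected 409 of them, 65 were seen in old serum alone and 142 in disuse serum alone. These numbers pool 4 old libraries of 562499 counts together and 5 disuse libraries of 956186. Detection depends on depth, and the numbers at equal depth are given below. A filter on low counts left 165 miRNAs for testing. The 451 that were left out together held 0.289% of the counts of old and disuse serum.

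Serum holds no cells, but miRNAs persist in it because Argonaute proteins, lipoproteins and vesicles protect them from nucleases. Its pool is a mixture that blood cells, endothelium, liver, gut, muscle and other organs release, so a level in serum reflects release and clearance as well as synthesis. In a bulk measurement such as this, fewer releasing cells of a type and less RNA released per cell cannot be told apart. A miRNA recognises its messenger RNA targets mainly through its seed, bases 2 to 8 counted from the 5′ end, so miRNAs with the same seed form a family.

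The 4 miRNAs that differed between the groups belong to 3 seed families. Their mature sequences are shown with the relatives that read counting has to tell them apart from, 5′ to 3′, with the seed in capitals. Sequences are RefSeq's for build GRCm38.p6.
miR-192-5p: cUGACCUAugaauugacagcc
miR-215-5p: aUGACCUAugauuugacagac
miR-146a-5p: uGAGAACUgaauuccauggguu
miR-146b-5p: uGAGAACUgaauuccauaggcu
miR-127-3p: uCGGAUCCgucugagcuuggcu

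miR-192-5p (chr19:6264857-6264877, plus strand) and miR-215-5p (chr1:185313610-185313630, plus strand) come from different chromosomes and share a seed. Counted from the 5′ end, they differ at 3 of 21 bases, C1A, A12U and C20A. The miR-215-5p locus lies in an exon of the antisense transcript 2010103J01Rik, opposite an intron of Iars2. miR-146a-5p (chr11:43374435-43374456, minus strand) and miR-146b-5p (chr19:46342790-46342811, plus strand, in an intron of Mfsd13a) differ at 2 of 22 bases, G18A and U21C. miR-127-3p (chr12:109592888-109592909, plus strand) lies opposite an exon of Rtl1 in the imprinted Dlk1-Dio3 region. The rule by which reads matching several miRNAs were counted is not given in the sources used here, so the split of counts between such close relatives is uncertain.

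The old libraries held 45176 to 260729 counts and the disuse libraries 128216 to 309133. Levels are given in CPM, in which a library's total is first multiplied by its TMM factor, an estimate of how far the bulk of its miRNAs is shifted. Where a library has 0 counts of a miRNA, up to 3 counts remain possible, a limit of 9.70 to 66.4 CPM on the totals without that factor, which covers counting error alone, since amplified reads are not independent molecules. Across the 165 tested miRNAs, the correlation of log2 CPM between libraries was 0.890 to 0.970 within old serum, 0.948 to 0.976 within disuse serum and 0.884 to 0.973 between the groups. The median over miRNAs of the SD of log2 CPM was 0.51 in old and 0.35 in disuse serum. The markers of blood and liver were present in every library: miR-451a of red cells at 5582 CPM or more, miR-142-5p of leukocytes at 6180 CPM or more and miR-122-5p of hepatocytes at 720.5 CPM or more. The neural marker miR-9-5p and the slow-muscle miRNA miR-499-5p had 0 counts in all 9 libraries.

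Old serum held more miR-192-5p, miR-215-5p and miR-146a-5p than disuse serum and less miR-127-3p, and no other miRNA passed an adjusted p under 0.05. These 4 were 2.42% of the 165 miRNAs tested, with 1.82% higher and 0.606% lower in old serum. At an unadjusted p under 0.05 there were 17, or 10.3%, of which 10 were higher and 7 lower in old serum. Most miRNAs differed little: 79 log2 changes were above 0 and 86 below, with a median of -0.04, a median size of 0.28 and a median standard error (SE) of 0.34. Beyond a log2 change of 1 in either direction there were 7 miRNAs. With library totals in place of TMM factors 0 of 165 passed, with 9 at an unadjusted p under 0.05, and with a filter of 10 CPM in 4 or more libraries 0 of 318 passed, with 28 at an unadjusted p under 0.05, while DESeq2 called 6 and limma-voom 4. Changes are given throughout as log2 of old over disuse serum, with p from edgeR's quasi-likelihood test and Benjamini-Hochberg adjustment over all 165.

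**Figure D1:**
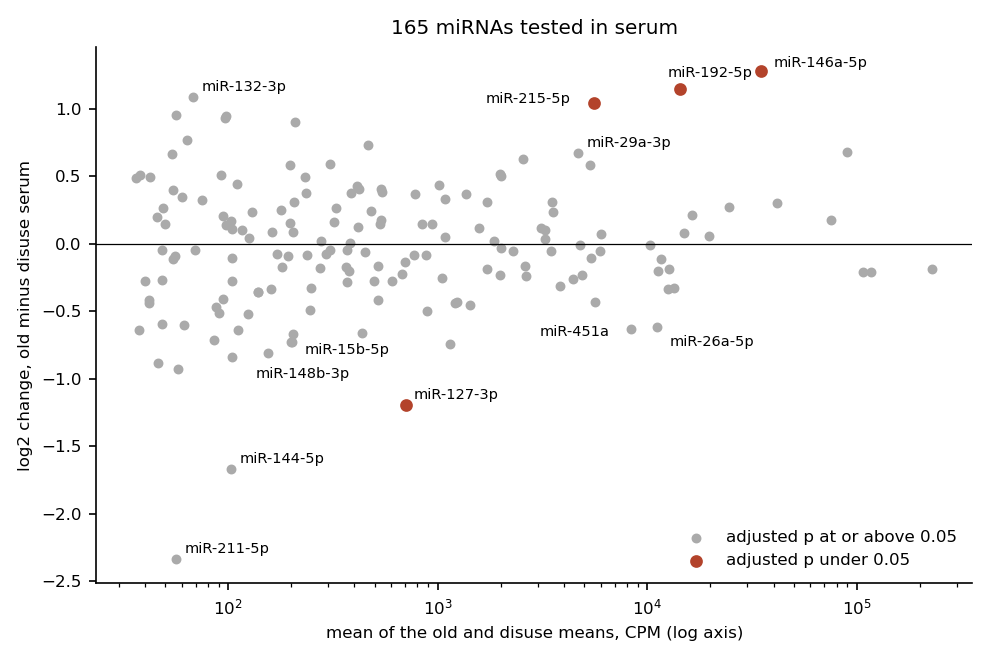
Log2 change between old and disuse serum (vertical) against the mean of the group means in CPM (horizontal, log axis) for the 165 tested miRNAs, 1 point each. The 4 red points passed an adjusted p under 0.05, and the 12 miRNAs with the smallest p are named. The 3 higher in old serum are abundant, and the points for miR-144-5p and miR-211-5p, the lowest on the plot, did not pass.

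miR-192-5p and miR-215-5p, epithelial miRNAs of liver, gut and kidney that p53 is known to induce, were higher in old serum. miR-192-5p stood at 20825, 27130, 18267 and 12624 CPM in the 4 old libraries and at 10365, 7659, 10839, 8955 and 6821 CPM in the 5 disuse libraries. Every old library lay above every disuse library, and the old library closest to the disuse group was the shallowest, old serum 4. The means were 19712 ± 6016 (SD, n = 4) and 8928 ± 1715 CPM (SD, n = 5), a log2 change of 1.14 ± 0.26 (SE; 95% interval 0.60 to 1.69, adjusted p = 0.0304). miR-215-5p stood at 9028, 8758, 7089 and 5037 CPM in old serum and at 4896, 3347, 4459, 2725 and 2739 CPM in disuse serum. Its groups also did not overlap, though old serum 4 and disuse serum 1 were close. The log2 change was 1.04 ± 0.25 (95% interval 0.52 to 1.56, adjusted p = 0.0304).

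The ratio of the pair within a library did not separate the groups: its log2 was 1.38 ± 0.18 (SD, n = 4) in old and 1.32 ± 0.24 (SD, n = 5) in disuse serum. The third tested member of the miR-192 and miR-194 clusters is miR-194-5p, which is made beside miR-192-5p on chromosome 19 and beside miR-215-5p on chromosome 1. It stood at 0.24 ± 0.32 (adjusted p = 0.847), on 76 counts in old and 124 in disuse serum, with a 95% interval of -0.45 to 0.92. miR-122-5p, the main hepatocyte miRNA, was at 0.37 ± 0.49 (95% interval -0.66 to 1.40, adjusted p = 0.847). Among 5 tested liver miRNAs, 1 passed, miR-192-5p, and the median was 0.24, beside 3 of 165 (1.82%) higher in old serum and a median of -0.04 over all tested miRNAs. Of those 5, 4 were above 0 with the TMM factors used here and 3 with upper-quartile factors or library totals. Both members of the pair passed without old serum 4 and without disuse serum 1. Neither passed without old serum 1 (adjusted p = 0.167), old serum 2 (0.146), old serum 3 (0.0718) or disuse serum 2 (0.0750), 3 (0.0522), 4 (0.109) or 5 (0.0762), by edgeR's quasi-likelihood test.

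miR-146a-5p, which dampens Toll-like receptor and interleukin-1 signalling by repressing TRAF6 and IRAK1, had the highest positive change of all tested miRNAs. It stood at 55898, 61251, 34156 and 45834 CPM in old serum and at 30078, 19953, 20865, 12966 and 17800 CPM in disuse serum. All 4 old libraries exceeded all 5 disuse libraries, and disuse serum 1 came closest to them. Means were 49285 ± 11940 (SD, n = 4) and 20332 ± 6246 CPM (SD, n = 5), a log2 change of 1.28 ± 0.30 (95% interval 0.64 to 1.92, adjusted p = 0.0304). It took 4.81% ± 0.975 (SD, n = 4) of the counts of old serum and 2.08% ± 0.819 (SD, n = 5) of those of disuse serum.

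Its near-identical relative miR-146b-5p, printed above, stood at 2068, 1694, 1355 and 2221 CPM in old serum and at 2263, 2525, 2222, 1726 and 2013 CPM in disuse serum. These groups overlapped, and the log2 change was -0.23 ± 0.31 (95% interval -0.88 to 0.41, adjusted p = 0.847). The log2 ratio of miR-146a-5p to miR-146b-5p needs no scaling between libraries. It ran from 4.35 to 5.17 in old serum (4.73 ± 0.34, SD, n = 4) and from 2.91 to 3.73 in disuse serum (3.20 ± 0.32, SD, n = 5), without overlap.

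Of 6 tested inflammation-associated miRNAs, miR-146a-5p alone passed, 4 were above 0 and 2 below, with a median of 0.77. Over all tested miRNAs 3 of 165 (1.82%) passed as higher in old serum, 79 were above 0 and the median was -0.04. miR-132-3p, induced in activated myeloid cells and also abundant in neurons, stood at 1.09 ± 0.41 (adjusted p = 0.226) and miR-21a-5p, widely induced in inflamed and injured tissue, at 0.59 ± 0.26 (adjusted p = 0.359). The passenger strand miR-21a-3p was at 0.96 ± 0.61 and miR-125b-5p at -0.20 ± 0.27. miR-155-5p, a miRNA of activated lymphocytes and macrophages, had 38 counts in old and 26 in disuse serum and was not tested. Among 5 leukocyte miRNAs 0 passed: miR-342-3p was at 0.63 ± 0.42, miR-142-3p at -0.64 ± 0.34, miR-142-5p at -0.01 ± 0.26, miR-223-3p at -0.08 ± 0.24 and miR-150-5p at -0.24 ± 0.29. The summed level of the leukocyte list overlapped between the groups, at 10755 to 21643 CPM in old and 15053 to 17592 CPM in disuse serum. miR-146a-5p did not pass when any library other than disuse serum 1 was left out (adjusted p = 0.0684 to 0.167, the last without old serum 1).

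miR-127-3p, a maternally expressed miRNA of the Dlk1-Dio3 cluster, which is prominent in embryonic tissues, was lower in old serum. It stood at 339, 285, 497 and 616 CPM in old serum, or 30, 54, 102 and 28 counts. In disuse serum it stood at 884, 534, 942, 1439 and 1052 CPM. The groups overlapped here, because old serum 4 exceeded disuse serum 2, and all 4 old libraries were below the disuse median. Means were 434 ± 151 (SD, n = 4) and 970 ± 326 CPM (SD, n = 5), a log2 change of -1.20 ± 0.30 (95% interval -1.83 to -0.56, adjusted p = 0.0383). The only other tested member of the cluster, miR-434-3p, was at 56.5, 47.5, 29.3 and 21.99 CPM in old serum and at 73.3, 84.7, 50.3, 81.9 and 91.5 CPM in disuse serum. Its log2 change of -0.93 ± 0.46 did not pass (adjusted p = 0.492).

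The cluster list held 37 miRNAs, of which 29 had a count in old or disuse serum. Their summed level was 401 to 660 CPM in old serum and 754 to 1742 CPM in disuse serum, so the sums did not overlap. miR-127-3p made up most of them, with 214 of the list's 283 counts in old and 1086 of 1371 in disuse serum. The 27 members with a count that were not tested had 48 counts in old and 207 in disuse serum, of 562499 and 956186 counts of all miRNAs. As a share of the group's counts, 24 of the 27 were lower and 3 higher in old serum, most of them on a few counts. The same tally over all 451 untested miRNAs is not given here, so this one has no background. Over all 616 miRNAs with a count, 142 were seen in disuse serum alone and 65 in old serum alone. The summed level of the 27 was 21.99 to 147 CPM in old and 136 to 230 CPM in disuse serum, so these sums overlapped. The 3 with the most counts were miR-434-5p (9 in old and 30 in disuse serum), miR-411-5p (5 and 21) and miR-300-3p (6 and 15), and those higher in old serum were miR-370-3p (1 and 0), miR-376b-3p (1 and 0) and miR-376a-3p (1 and 1). Without disuse serum 2, and without old serum 4, miR-127-3p passed. It did not pass without old serum 1 (adjusted p = 0.197), 2 (0.207) or 3 (0.0782), or without disuse serum 1 (0.0630), 3 (0.0765), 4 (0.135) or 5 (0.0762), by edgeR's quasi-likelihood test.

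**Figure D2:**
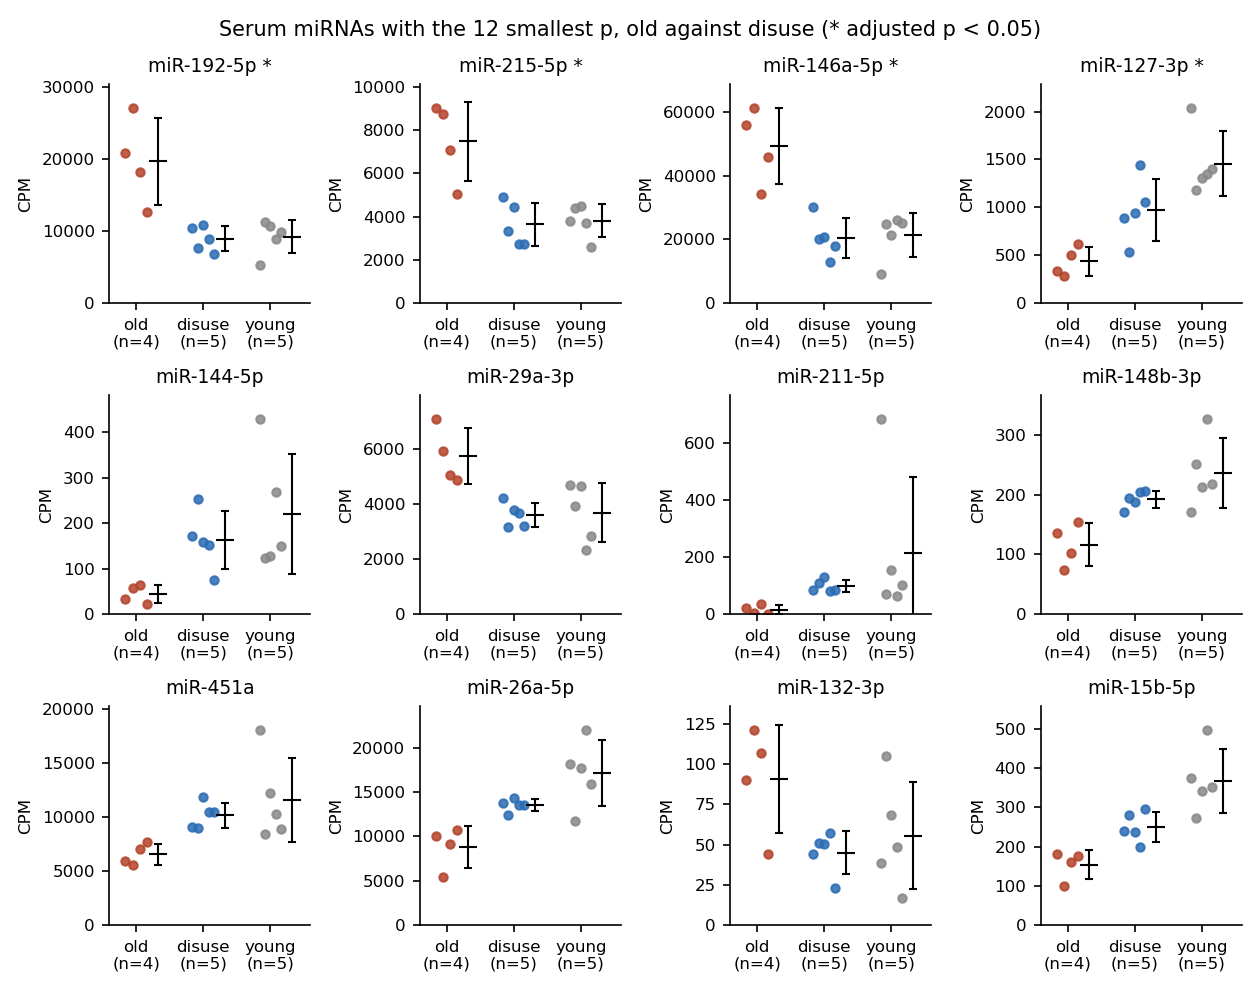
CPM (vertical, linear, starting at 0) of the 12 miRNAs with the smallest p in each serum library, in columns for old (n = 4), disuse (n = 5) and young (n = 5). Each point is a library, and the bar beside it gives the mean and SD, which for miR-211-5p in young serum runs below 0 and is cut there. Stars mark adjusted p under 0.05 between old and disuse serum. For miR-192-5p, miR-215-5p and miR-146a-5p all old points lie above all disuse points, and for miR-127-3p old serum 4 lies above disuse serum 2.

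Among miRNAs that did not pass, the red cell group held the smallest p. miR-144-5p and miR-451a are cut from the same primary transcript in red cell precursors, where the transcription factor GATA1 drives it.
miR-144-5p: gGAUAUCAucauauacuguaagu
miR-451a: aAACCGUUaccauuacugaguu
Their mature sequences, shown because the pair stems from a single locus yet shares no seed, lie at chr11:78073010-78073032 and chr11:78073186-78073207 on the plus strand. miR-144-5p had 3, 11, 13 and 1 counts in old serum, or 33.9, 58.0, 63.4 and 21.99 CPM, against 171, 254, 158, 153 and 74.3 CPM in disuse serum. All old libraries lay below all disuse libraries, and the log2 change was -1.67 ± 0.48 (adjusted p = 0.0883). miR-451a stood at 5898, 5582, 7020 and 7698 CPM in old serum and at 9070, 8972, 11803, 10459 and 10481 CPM in disuse serum. Its groups did not overlap either, with a log2 change of -0.63 ± 0.24 (adjusted p = 0.226). The third product of the locus, miR-144-3p, was at -0.71 ± 0.52 (adjusted p = 0.598), on 41 and 129 counts.

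On the log2 scale, miR-451a over miR-23a-3p, a measure of red cell content in serum, was 0.71, 0.58, 1.32 and 1.37 in old serum and 1.49, 1.33, 1.64, 2.39 and 1.59 in disuse serum. Old serum 4 and disuse serum 2 overlapped narrowly. Means were 0.99 ± 0.41 (SD, n = 4) and 1.69 ± 0.41 (SD, n = 5), a difference of -0.69 (two-sided exact permutation p = 0.0317, adjusted p = 0.127 over 4 such tests, where the smallest p that 4 against 5 libraries can give is 0.0159). Without old serum 1, 2 or 3 the difference was -0.60, -0.55 and -0.80 (exact permutation p = 0.0714 each), and without disuse serum 1, 3, 4 or 5 it was -0.74, -0.71, -0.52 and -0.72 (exact permutation p = 0.0571 each). Of 11 tested erythrocyte miRNAs 0 passed, 3 were above 0 and 8 below, with a median of -0.21. Of all 165 tested miRNAs, 1 (0.606%) passed as lower in old serum, 86 were below 0 and the median was -0.04. miR-486-5p, the most counted miRNA of both groups and a product of red cell precursors and muscle, was at -0.18 ± 0.39. miR-25-3p and miR-92a-3p, also abundant in red cells, were at -0.06 ± 0.23 and 0.06 ± 0.23. The part of red cell content in the other differences was not tested.

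miR-211-5p, made from an intron of Trpm1 and known for its expression in melanocytes and retina, had the lowest log2 change, -2.34 ± 0.83 (adjusted p = 0.226). It had 2, 1, 7 and 0 counts in old serum and 17, 13, 18, 29 and 15 in disuse serum. Each disuse library was above each old one, at 79.2 to 129 CPM against 0 to 34.1 CPM. The 0 counts of old serum 4, the shallowest library, allow a level of up to 66.4 CPM on its unadjusted total. miR-204-5p, made from an intron of Trpm3, carries the same seed and differs from it at 1 of 22 bases, U17A.
miR-211-5p: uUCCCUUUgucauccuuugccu
miR-204-5p: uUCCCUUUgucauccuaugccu
miR-204-5p had 36, 72, 229 and 16 counts in old serum and 58 to 219 in disuse serum, and its log2 change was 0.18 ± 0.36. The log2 ratio of miR-211-5p to miR-204-5p was -4.44 ± 0.71 (SD, n = 4) in old and -2.33 ± 0.48 (SD, n = 5) in disuse serum, with no overlap. Both miR-144-5p and miR-211-5p passed with DESeq2 (adjusted p = 0.0281 and 0.0373), in a fit of the old and disuse libraries alone (0.0267 and 0.0128) and with no filter on low counts (0.0148 and 0.00626).

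The other miRNAs among the 12 with the smallest p were miR-29a-3p, miR-26a-5p, miR-15b-5p, miR-148b-3p and miR-132-3p, all at an adjusted p of 0.226. miR-29a-3p, a repressor of collagen mRNAs, stood at 7096, 5930, 5060 and 4883 CPM in old serum and at 4212, 3160, 3783, 3673 and 3213 CPM in disuse serum. The groups did not overlap, and the log2 change was 0.67 ± 0.23. miR-26a-5p, made from introns of Ctdspl and Ctdsp2, stood at 10079, 5382, 9083 and 10689 CPM in old serum against 12412 to 14320 CPM in disuse serum. The disuse libraries were tightly grouped and old serum 2 was the lowest of all, with a log2 change of -0.62 ± 0.23. miR-15b-5p, a regulator of the cell cycle encoded with miR-16-5p in an intron of Smc4, stood at 100 to 181 CPM in old and 199 to 297 CPM in disuse serum (-0.73 ± 0.27). miR-148b-3p, from an intron of Copz1, stood at 73.9 to 154 CPM and 171 to 206 CPM (-0.81 ± 0.29). miR-132-3p rested on 55 counts in old and 47 in disuse serum (1.09 ± 0.41), and its groups overlapped.

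In all, 6 miRNAs (3.64%) had every old library above every disuse library, and 8 (4.85%) had every old library below. Besides those named, the higher ones were miR-200a-3p and miR-423-3p, and the lower ones miR-16-5p and miR-322-3p. miR-16-5p, among the most abundant miRNAs of blood cells, stood at 11261 to 12763 CPM in old and 13078 to 16107 CPM in disuse serum, and its log2 change was -0.33 ± 0.18 (adjusted p = 0.530).

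The most counted miRNAs carried no difference that passed other than that of miR-146a-5p. The 10 with the highest mean CPM took 73.6% ± 6.13 (SD, n = 4) of the counts of old serum and 73.2% ± 4.07 (SD, n = 5) of those of disuse serum (two-sided exact permutation p = 0.921, adjusted p = 0.921). miR-486-5p led with 20.1% ± 6.13 and 23.95% ± 3.86 of counts, ahead of miR-3107-5p with 10.1% and 12.3%, which kept a nearly fixed ratio to it. The log2 ratio of miR-486-5p to miR-3107-5p was 0.92 to 1.02 in old and 0.92 to 1.01 in disuse serum. Both are close relatives, and how reads were split between them is uncertain. The steady ratio therefore does not show separate miRNAs changing together, and its cause was not tested. The muscle and erythrocyte lists count them as separate members. miR-191-5p was at 0.17 ± 0.37, miR-22-3p at 0.30 ± 0.25, miR-30d-5p at 0.28 ± 0.19, and miR-30a-5p at 0.22 ± 0.19. Order by counts is not order by molecules, since adapter ligation favours some sequences over others.

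miR-10a-5p and miR-10b-5p, encoded in the HoxB and HoxD clusters, share a seed and differ at 1 of 23 bases, given for miR-10b-5p against miR-10a-5p as A12U.
miR-10b-5p: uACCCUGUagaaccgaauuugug
miR-10a-5p: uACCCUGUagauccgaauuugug
They are shown because their ratio did not overlap between the groups while their levels did. miR-10a-5p stood at 105548, 178830, 54017 and 104469 CPM in old serum and at 46780 to 95892 CPM in disuse serum (0.68 ± 0.42, adjusted p = 0.581). miR-10b-5p stood at 111220, 124655, 48026 and 112782 CPM and at 79944 to 156598 CPM (-0.21 ± 0.39, adjusted p = 0.893). The log2 ratio of miR-10a-5p to miR-10b-5p was -0.11 to 0.52 in old serum (0.13 ± 0.29, SD, n = 4) and -0.92 to -0.60 in disuse serum (-0.73 ± 0.12, SD, n = 5), without overlap. This pair and the other ratios of relatives are descriptions, 9 in all, of which 3 did not overlap between the groups: miR-146a-5p to miR-146b-5p, miR-211-5p to miR-204-5p and miR-10a-5p to miR-10b-5p. The 9 were chosen after their values were seen. No such count over all pairs with a shared seed is given, so the 3 have no background.

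Of the miRNAs known from skeletal muscle, none of those tested passed. Apart from miR-486-5p and miR-3107-5p, miR-133a-3p was the most abundant of them in serum. It stood at 1559 to 2727 CPM in old and 907 to 3539 CPM in disuse serum. Its log2 change was -0.06 ± 0.39, with a 95% interval of -0.88 to 0.76. miR-133a-5p was at 0.15 ± 0.59. miR-1a-3p had 15 counts in old and 12 in disuse serum, miR-206-3p 7 and 13, miR-133b-3p 8 and 27, miR-208b-3p 0 and 1, and miR-499-5p 0 and 0. Those 5 were left out by the filter on low counts and were not tested. Of 4 tested members of the muscle list 0 passed, and 3 of the 4 were below 0 (all 4 with library totals), with a median of -0.12. Beside this, 86 of all 165 tested miRNAs were below 0, with a median of -0.04.

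**Figure D3:**
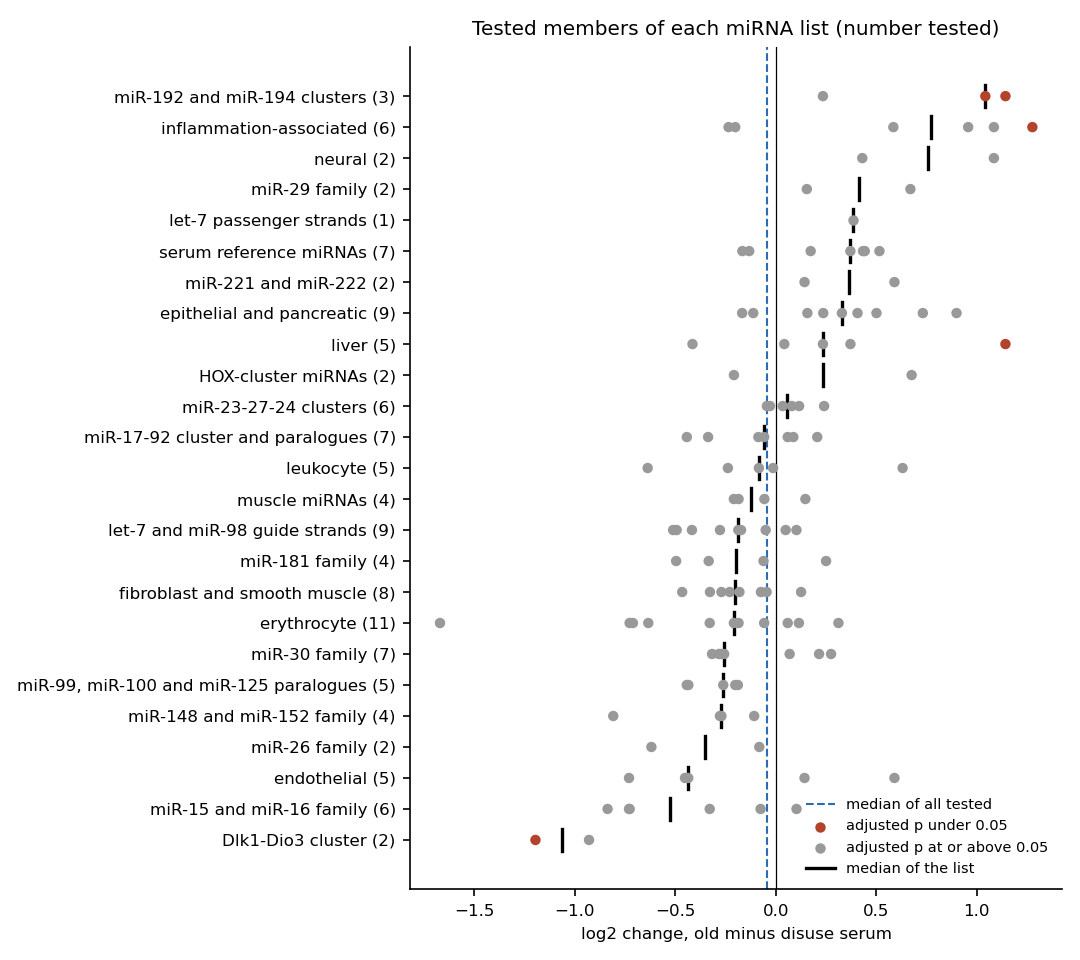
Log2 change between old and disuse serum (horizontal) of the tested members of 25 miRNA lists (rows, with the number tested), ordered by median. Points are miRNAs, red where the adjusted p was under 0.05, black bars are list medians and the dashed line is the median of all 165 tested miRNAs, -0.04. Red points stand in 4 lists, and miR-192-5p appears in 2 of them.

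Of 9 tested epithelial and pancreatic miRNAs, 0 passed, 7 were above 0 and 2 below, with a median of 0.33. The miR-200 family, which keeps epithelial cells from a mesenchymal state, had all 5 of its tested members above 0, from miR-200a-3p at 0.90 ± 0.36 (adjusted p = 0.276) and miR-429-3p at 0.73 ± 0.31 (0.347) through miR-141-3p at 0.50 ± 0.25 and miR-200b-3p at 0.41 ± 0.46 to miR-200c-3p at 0.16 ± 0.36. miR-200a-3p stood at 215, 195, 288 and 396 CPM in old serum and at 93.5 to 186 CPM in disuse serum, without overlap. miR-375-3p, of pancreatic islets and gut, was at 0.33 ± 0.44, and miR-205-5p, of stratified epithelium, at 0.24 ± 0.30. The 2 below 0 were miR-203-3p at -0.17 ± 0.41 and miR-184-3p at -0.11 ± 0.48. Over all 165 tested miRNAs 79 were above 0 and the median was -0.04.

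Of 8 tested fibroblast and smooth muscle miRNAs, 0 passed, 1 was above 0 and 7 below, with a median of -0.20. miR-214-3p was at -0.47 ± 0.34 and miR-143-3p, a smooth muscle miRNA, at -0.23 ± 0.36. Endothelial miRNAs had a median of -0.44 over 5 tested members, with miR-126a-3p at -0.45 ± 0.24 and miR-126a-5p at -0.44 ± 0.27. Against these stood miR-222-3p at 0.59 ± 0.36, and none of the 5 passed. Among all 165 tested miRNAs 86 were below 0, and the median was -0.04.

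Among lists of related miRNAs, some of which join several seeds or both arms of a hairpin, the miR-15 and miR-16 list had 5 of 6 tested members below 0 and a median of -0.53, the miR-99, miR-100 and miR-125 paralogues 5 of 5 below 0 (-0.26), the miR-148 and miR-152 family 4 of 4 (-0.27) and the let-7 and miR-98 guide strands 7 of 9 (-0.19), with 0 passing in each. For let-7 and miR-98 that count was 8 with upper-quartile factors and 6 with library totals. As background for these and the following lists, 79 of all 165 tested miRNAs were above 0 and 86 below, with a median of -0.04. let-7 miRNAs restrain growth and development genes, and the largest of them here were miR-98-5p at -0.51 ± 0.36 and let-7d-5p at -0.49 ± 0.34. The miR-23-27-24 clusters had a median of 0.06, which was -0.01 with upper-quartile factors. The serum reference miRNAs, 7 that are often used to scale serum measurements, had 5 above 0 and a median of 0.37, with miR-423-5p at 0.52 ± 0.27, miR-423-3p at 0.43 ± 0.23 and miR-103-3p at 0.37 ± 0.23. The remaining lists also had 0 members past the threshold. Their medians were 0.76 for 2 neural miRNAs, 0.38 for the 1 let-7 passenger strand tested, 0.23 for the HOX-cluster pair miR-10a-5p and miR-10b-5p, 0.41 for 2 of the miR-29 family, 0.37 for miR-221-3p and miR-222-3p, -0.06 for 7 of the miR-17-92 cluster and its paralogues, -0.20 for 4 of the miR-181 family, -0.26 for 7 of the miR-30 family and -0.35 for 2 of the miR-26 family. Of the miR-34 and miR-449 family, induced by p53, 0 members were tested and miR-34a-5p had 5 counts in old and 11 in disuse serum.

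The tested miRNAs were also grouped by seed and by position in the genome. Among 135 tested miRNAs with a matched mature sequence, 23 seeds were shared by 2 or more, 65 miRNAs in all. In 7 of these families all members were above 0, in 7 all were below 0 and in 9 they were mixed. The summed CPM of a seed did not overlap between the groups for UGACCUA (miR-192-5p and miR-215-5p), GAGAACU (miR-146a-5p and miR-146b-5p) and AGCACCA (miR-29a-3p and miR-29c-3p), each higher in old serum, nor for UCAAGUA (miR-26) and AGCAGCA (miR-15 and miR-16), each lower. For UGACCUA the sums were 27190 ± 7680 (SD, n = 4) and 12561 ± 2597 CPM (SD, n = 5).

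Hairpins within 10 kb of each other on a strand formed 25 groups, with all tested members above 0 in 10, all below in 8 and mixed in 7. These groups are not independent, since 8 miRNAs encoded at more than 1 locus stand in 2 or more of them. Of the 13 groups that share no miRNA with another, 5 were all above 0, 5 all below and 3 mixed. The group with the lowest median was miR-127-3p with miR-434-3p (-1.06), followed by miR-144-5p, miR-144-3p and miR-451a (-0.71). The highest was miR-200a-3p, miR-200b-3p and miR-429-3p on chromosome 4 (0.73). For 14 hairpins both arms were tested, and the arms had the same sign in 8. In 0 of the 14 did the ratio of the arms separate the groups. The widest split was within the miR-144 hairpin, -1.67 against -0.71, and the next within that of let-7d, -0.49 for the 5p and 0.38 for the 3p arm.

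Across the matched miRNAs, percent G or C and log2 change had a Pearson r of 0.14 (Spearman rho 0.13), and length a Pearson r of 0.03. Across the same 135 matched miRNAs, log2 mean CPM had a Pearson r of 0.13 with the log2 change. These describe miRNAs that share libraries and are not independent replicates.

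Young serum gave a further level for each miRNA. The comparisons of old and of disuse serum with young serum share libraries with each other and with the main one, so the values are set side by side and nothing is read from their likeness. Young serum stood at 9220 ± 2333 CPM (SD, n = 5) for miR-192-5p, 3811 ± 756 for miR-215-5p and 21286 ± 6958 for miR-146a-5p. The disuse minus young log2 changes of those 3 were -0.05 ± 0.25, -0.07 ± 0.23 and -0.07 ± 0.29. For miR-127-3p, young serum stood at 1456 ± 336 CPM (SD, n = 5), and disuse minus young was -0.58 ± 0.27 (adjusted p = 0.380). The order of its means was old, disuse, young, and the disuse and young libraries overlapped. miR-15b-5p (-0.57 ± 0.24), miR-26a-5p (-0.34 ± 0.22), miR-148b-3p (-0.30 ± 0.25), miR-211-5p (-1.19 ± 0.57) and miR-144-5p (-0.49 ± 0.38) had disuse minus young changes below 0 that did not pass, at adjusted p of 0.358 to 0.712. Those of miR-29a-3p (-0.03 ± 0.22), miR-132-3p (-0.36 ± 0.40) and miR-451a (-0.19 ± 0.22) did not pass either, at adjusted p of 0.849 to 0.978.

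**Figure D4:**
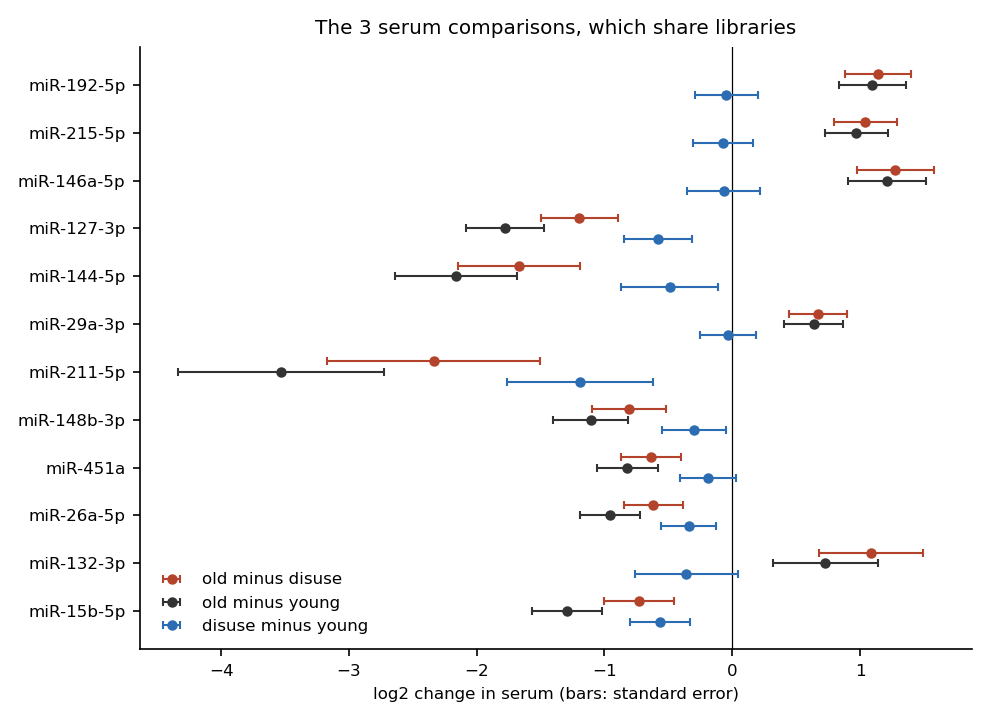
Log2 change (horizontal, bars are SE) of the 12 miRNAs with the smallest p between old and disuse serum, in the 3 comparisons of the serum groups, which share libraries. For miR-192-5p, miR-215-5p and miR-146a-5p the disuse minus young points lie at -0.07 to -0.05, and for miR-127-3p the point lies at -0.58.

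The same contrast was also made in muscle. The difference between the serum and the muscle change was tested in a single fit of all 29 libraries over 241 miRNAs, of which 3 (1.24%) passed and 19 had an unadjusted p under 0.05. miR-127-3p was lower in old than in disuse muscle by nearly the same amount as in serum, -1.18 ± 0.19 (adjusted p = 3.30e-04). Its means there were 2695 ± 524 and 5984 ± 1742 CPM (SD, n = 5 each), and the serum minus muscle difference was -0.11 ± 0.37 (95% interval -0.85 to 0.63). miR-434-3p was at -1.51 ± 0.21 in muscle (adjusted p = 1.03e-04), with a difference of 0.49 ± 0.51. miR-192-5p and miR-146a-5p were at 0.42 ± 0.21 and 0.44 ± 0.26 in muscle, neither of which passed. Their serum minus muscle differences were 0.63 ± 0.34 and 0.71 ± 0.42 (adjusted p = 0.545 and 0.608), so the changes in the sources were not shown to differ. miR-215-5p was not tested in muscle alone. Over the 152 miRNAs tested in both sources, the changes had a Pearson r of 0.16 and a Spearman rho of 0.10 across miRNAs, which share libraries and scaling.

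**Figure D5:**
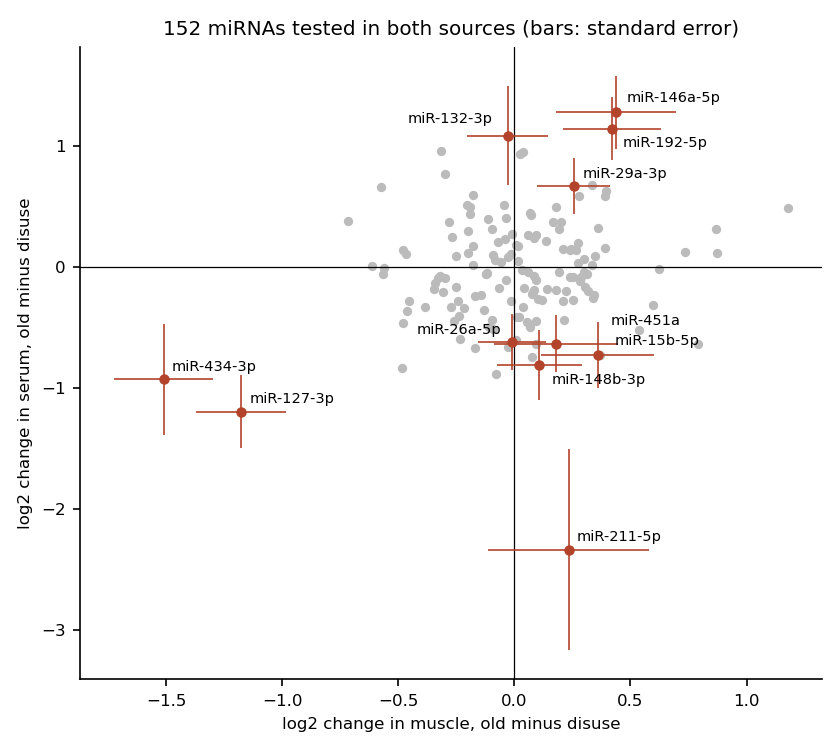
Log2 change between old and disuse in serum (vertical) against that in muscle (horizontal) for the 152 miRNAs tested in both sources, with SE bars on the named ones. miR-127-3p and miR-434-3p lie low in both sources, and miR-211-5p, at -2.34 in serum, lies at 0.23 in muscle.

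The 3 miRNAs whose serum and muscle changes differed were scarce in one of the sources. miR-205-5p was abundant in serum at 1804 to 4707 CPM in old and 2502 to 4889 CPM in disuse libraries. In muscle it had 8, 1, 2, 0 and 1 counts in old and 4, 7, 2, 23 and 41 in disuse libraries, so the difference of 3.28 ± 0.69 (adjusted p = 0.00820) rests on a few muscle counts, most of them in disuse muscle 4 and 5. miR-196b-5p, encoded in the Hoxa cluster and known from the developing hindlimb, had 0, 0, 1 and 0 counts in old serum and 7, 1, 1, 9 and 4 in disuse serum, against 494 to 1611 counts in old and 53 to 991 in disuse muscle (-3.77 ± 0.91, adjusted p = 0.0251). miR-196a-5p, which differs from it at 1 of 22 bases, C12A counted from miR-196b-5p, had 0 counts in every old serum library and 2, 0, 4, 5 and 2 in disuse serum. It was the sole miRNA with 10 or more counts in either group and 0 in the other. A limit of 3 counts over the old group is 5.33 CPM on unadjusted totals, and its 13.6 CPM over disuse serum is 2.55 times that limit. This takes the 13 disuse counts as exact and leaves out the spread between libraries, so it does not bound the group difference. In muscle miR-196a-5p stood at 3069 ± 802 in old and 2379 ± 375 CPM in disuse libraries (SD, n = 5 each). It passed the test of the serum minus muscle difference (adjusted p = 0.0421), where a fitted fold of a group at 0 is no bound. miR-196b-5p did not pass without disuse serum 1 (adjusted p = 0.0699), disuse serum 4 (0.0861), old serum 1 (0.0790) or old serum 2 (0.177). miR-196a-5p passed when disuse serum 2 was left out and not when any of the other 8 serum libraries was (adjusted p = 0.0628 to 0.193). It also did not pass with upper-quartile factors (adjusted p = 0.0596) or when the old and disuse libraries of both sources were fitted alone (0.0582).

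The number of miRNAs detected depends on depth. Old libraries detected 229 to 375 miRNAs and disuse libraries 318 to 425. After each library was thinned to 45176 counts, the depth of old serum 4, the numbers were 243 ± 19.8 (SD, n = 4) and 253 ± 13.7 (SD, n = 5), two-sided exact permutation p = 0.365 (adjusted p = 0.571). Total counts did not differ beyond their spread either (exact permutation p = 0.429, adjusted p = 0.571).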

How the data were processed

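Small RNA was sequenced from serum and from the tibialis anterior muscle. Per the labels' protocols, libraries were made with a TruSeq small RNA kit and amplified by PCR. The submitters' processing notes name Bowtie and the build mm10. Neither Bowtie's version, nor the annotation, nor the treatment of reads that fit more than 1 miRNA is given in the sources used here. The values the authors deposited are raw counts of reads assigned to each mature miRNA in each library, not normalized. Of the table's 1183 miRNAs, 488 had 28 values for the 29 libraries and were not used. Read in order, those 488 rows leave the last column empty. Which library's value is missing from them cannot be told with certainty. Each of those rows begins with at least 13 zeros, and the 14 serum columns stand first in the table. All 695 miRNAs used had a count in at least 1 serum library. The last column holds counts in the 695 miRNAs used. Each column was assigned to its sample by title, with 0 left unassigned.

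The 14 serum libraries were fitted together with edgeR 4.0.16 in R 4.3.3 (TMM factors, filterByExpr by group, glmQLFit and glmQLFTest, Benjamini-Hochberg adjustment, threshold 0.05). The contrast was old minus disuse. The serum change was compared with the muscle change in a fit of all 29 libraries, in which CPM are scaled anew. CPM are scaled by the TMM-adjusted library total, log2 values for SDs and correlations are log2(CPM + 1), and the SE is the log2 change divided by the square root of F. Single values per library were compared by exact permutation over 126 arrangements. Pairs of libraries within a group differed by a chi-square per degree of freedom of at least 13.4, which shows that no pair held the same counts but not that each came from its own animal. The libraries were treated as separate samples on the strength of their numbered labels. The fit was tested on simulated data. Positions and sequences come from RefSeq's GRCm38.p6 table, whose mature names matched 602 of the 695 miRNAs, and host genes from GENCODE M21.

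The members and the 26 lists of miRNAs, which share members, were chosen with earlier results of these data known. The miRNAs named are the 12 with the smallest p, the 10 with the highest mean CPM, members of the lists by p, those with 10 or more counts in 1 group and 0 in the other, those past the serum minus muscle test, and those that share a seed with the first 12. Ratios of near-identical relatives were chosen after their values were seen. Alternatives were other factors, filters, tests (DESeq2 1.42.0, limma-voom from limma 3.58.1), libraries in the fit, thinning and leaving out each library.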

Additional observations from a re-analysis of the deposited data

Results flagged for a closer look

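In 56 groups of libraries examined for a single value far from the others, 5 were found, where chance gives about 1 in 20. miR-205-5p stood at 1804 CPM in old serum 2, far under the other old libraries, and at 4889 CPM in disuse serum 2, far above the other disuse libraries. miR-196b-5p stood at 4.88 CPM in old serum 3, from 1 count, with 0 in the other old libraries. At equal depth, disuse serum 1 detected 277 miRNAs, more than its group. Disuse serum 4 had 309133 counts, the highest depth of its group.

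The old minus disuse change differed between serum and muscle for 3 miRNAs by the interaction test in edgeR (adjusted p under 0.05): miR-205-5p (3.28, adjusted p = 0.00820), miR-196b-5p (-3.77, adjusted p = 0.0251) and miR-196a-5p (-7.13, adjusted p = 0.0421). The last is a fitted value of a miRNA with 0 counts in old serum, so its size depends on the fit and is no bound.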

How the results depend on the processing

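The count of 4 miRNAs past the threshold stayed within 1.5 times with DESeq2's size factors (4), upper-quartile factors (3), no filter on low counts (4), limma-voom (4), DESeq2 (6), old and disuse libraries alone (6) and thinning to the shallowest library (3). It was 0 with library totals, 0 with a filter of 10 CPM and 0 with the replicate number as a block, where the smallest adjusted p was 0.0617. With no filter the 4 were miR-146a-5p, miR-127-3p, miR-144-5p and miR-211-5p. No fit that left out 1 library kept all 4. Without disuse serum 1, miR-192-5p, miR-215-5p and miR-146a-5p passed. Without old serum 4, miR-192-5p, miR-215-5p and miR-127-3p did, and without disuse serum 2 only miR-127-3p of the 4. Leaving out any other old or disuse library left none of the 4 past the threshold. The log2 changes ranged over those 9 fits from 0.94 to 1.27 for miR-192-5p, 0.94 to 1.17 for miR-215-5p, 1.14 to 1.46 for miR-146a-5p and -1.42 to -1.02 for miR-127-3p, all with the direction reported, and adjusted p from 0.0159 to 0.207. In the 10 other alternatives they passed in 6, 5, 7 and 6. The cause of the lost calls was not tested.

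Same-numbered old and disuse libraries deviated together with r = 0.29, 0.20, -0.07 and 0.09, so the numbers were not taken as pairs, though 3 of 4 old libraries correlated best with the disuse library of their number. The count of serum minus muscle differences was 1 to 3 when a library was left out. The miR-451a to miR-23a-3p ratio differed by -0.82 to -0.52 without 1 library (exact permutation p = 0.0286 to 0.0714). Changes near 0 reversed in 7 cases: miR-486-5p (-0.560 to 0.0322 over the 9 fits) and miR-3107-5p (-0.572 to 0.0133) without old serum 1, miR-10b-5p (-0.338 to 0.0211) without old serum 3, miR-191-5p (-0.0256 to 0.290) without old serum 2, and miR-92a-3p with upper-quartile factors (-0.0108), with no filter (-0.0380) and without disuse serum 4 (-0.0692 to 0.131). The median change of all miRNAs was -0.12 with upper-quartile factors. Depth limits the low miRNAs: old serum 4, with 45176 counts, cannot separate 0 from 66.4 CPM on its unadjusted total.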

Other observations

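Outside the lists, miR-210-3p, the miRNA that hypoxia-inducible factor induces most widely, stood at 147, 79.1, 156 and 132 CPM in old serum and at 48.9, 102, 57.5, 76.5 and 45.7 CPM in disuse serum. It was singled out after its values were seen. The groups overlapped through old serum 2 and disuse serum 2, and the log2 change of 0.95 ± 0.38 did not pass (adjusted p = 0.276 by edgeR's quasi-likelihood test). miR-351-5p, which carries the seed of miR-125 and is encoded near miR-322 on the X chromosome, was at -0.74 ± 0.37 (adjusted p = 0.492), beside miR-322-5p at -0.73 ± 0.37 and miR-322-3p at -0.84 ± 0.46.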
